A study of Mus musculus with 9 samples.

Results

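Arf GTPases cycle between a GTP-bound form on membranes and a GDP-bound form in the cytosol. Guanine nucleotide exchange factors (GEFs), which share a Sec7 domain, load them with GTP, and GTPase-activating proteins (GAPs) make them hydrolyse it. Expression of 10 of these regulators was followed in N2a cells (Neuro-2a, a mouse neuroblastoma line) in which Arf1 was knocked down. The genes were taken by symbol from the 21899 genes of the expression table, and all 10 were found. They were 7 GEFs and 3 GAPs. Gbf1 works at the early Golgi, Arfgef1 (BIG1) and Arfgef2 (BIG2) at the trans-Golgi network and on endosomes. Cyth1, Cyth2 and Cyth3 are cytohesins, which bind phosphoinositides and act near the plasma membrane, and Iqsec1 (BRAG2) is an exchange factor of the cell periphery. Arfgap1, Arfgap2 and Arfgap3 act with the COPI coat at the Golgi.

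RNA was sequenced from 3 groups of 3 libraries, which carried a luciferase hairpin as the control (shlucif) or an Arf1 hairpin, either shArf1-1 or shArf1-2. The labels give no further treatment, and every group carried a hairpin. The labels do not say whether the libraries of a group came from separate cultures, so p-values measure the spread between these libraries, which may be technical. The 6 libraries with shArf1-1 or shArf1-2 are called Arf1-deficient, although they come from 2 different hairpins.

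Library totals ran from 11182479 to 15594615 counts. Arf1 was at 316 to 328 FPKM (fragments per kilobase of gene length, scaled to the library total) with shlucif, 127 to 130 with shArf1-1 and 157 to 171 with shArf1-2. Of 16 neuroblast and sympathetic neuron markers, 13 had at least 20 counts in every library. All 16 summed to 2217 to 2281 CPM with shlucif and to 3069 to 3483 CPM in Arf1-deficient libraries. CPM are counts scaled to the library total and by trimmed mean of M values (TMM). Of 14 tested, 11 were higher and 1 lower at an adjusted p under 0.05 by edgeR's quasi-likelihood test. The lower gene was Map2 (-0.50 on the log2 scale, adjusted p = 8.2e-06, edgeR). Over all tested genes 31.6% were higher and 32.9% lower. Nefm, a neurofilament gene, was at 0 in every library. The shlucif libraries also held most of 18 listed macrophage markers, which go against the neuroblast label. Of these, 13 never fell below 20 counts with shlucif. The highest there were Lyz2 (1078 to 1237 counts), Cd68 (849 to 1050) and Ctss (564 to 649). Aif1 (2 to 5 counts), Cx3cr1 (1 to 2) and C1qa (0 to 1) were close to absent even with shlucif. In Arf1-deficient libraries 8 of the 18 were at 0 in every library. All 18 summed to 325 to 396 CPM with shlucif and to 1.03 to 1.88 CPM in Arf1-deficient libraries. In bulk RNA, fewer cells of a type and less RNA per cell cannot be told apart, and the part of this difference in the values below was not tested.

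The 2 hairpins differ in the stretch of Arf1 that they match, which is given here so that it can be set against the regulators' own transcripts. Both 21-base targets lie in the coding sequence of Arf1 on the minus strand of GRCm38, at chr11:59213222-59213242 for shArf1-1 and at chr11:59213386-59213406 for shArf1-2.
shArf1-1: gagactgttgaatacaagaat
shArf1-2: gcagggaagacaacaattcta
The longest run of bases shared between a target and any annotated transcript of the 10 genes, in the sense direction, was between 6 and 10 bases. For Cyth3 it was 9 bases with either hairpin, and for Arfgap3 it was 6 with shArf1-1 and 7 with shArf1-2.

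Cyth3 rose 3.39-fold in Arf1-deficient cells, Gbf1 rose 1.42-fold, Arfgap2 1.27-fold and Arfgef1 1.11-fold, while Arfgap3 fell to 0.582 and Cyth1 to 0.817 of the control level. Arfgef2, Cyth2, Iqsec1 and Arfgap1 did not pass the test. All 10 genes were among the 12448 tested, and 6 of 10 passed an adjusted p of 0.05 by edgeR's quasi-likelihood test (Benjamini-Hochberg over all tested genes), 4 higher and 2 lower. Over all tested genes 64.5% passed, with 31.6% higher and 32.9% lower, so the share of regulators that changed was close to that of the transcriptome. Their median log2 fold change was 0.06, beside 0.0033 over all tested genes. By role, 2 of 3 large GEFs rose, the cytohesins split into 1 higher, 1 lower and 1 not called, and so did the ArfGAPs. Iqsec1 was not called.

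**Figure D1:**
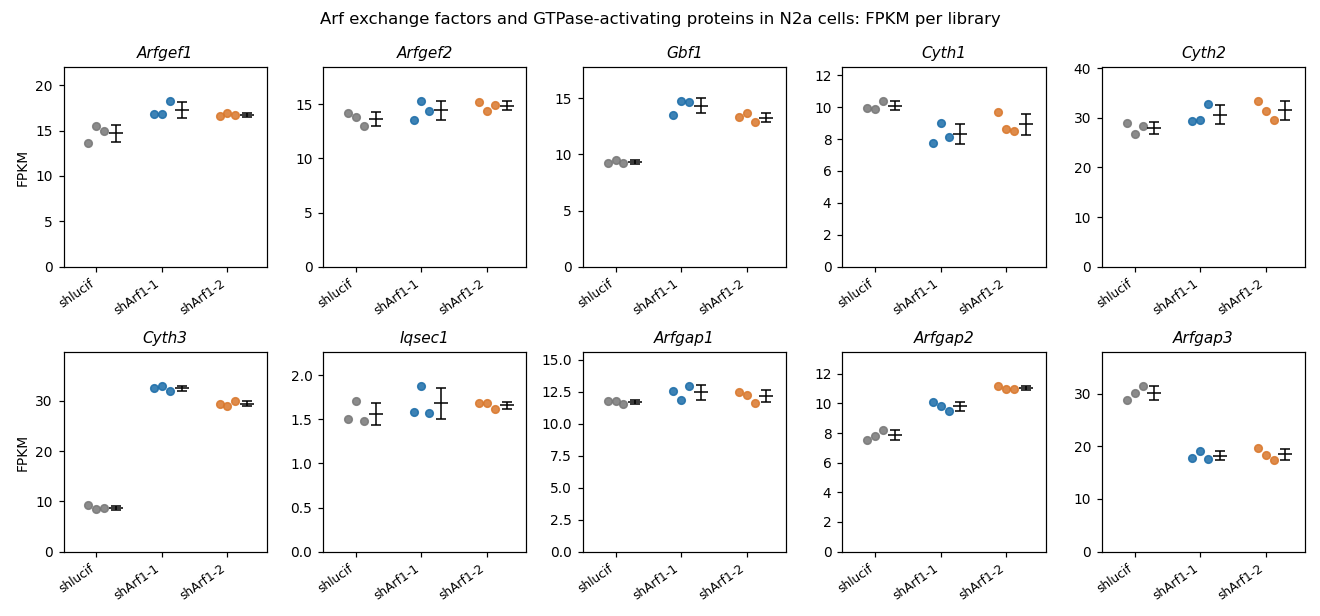
FPKM (linear axis from 0) of each regulator in the 9 libraries, with a point per library coloured by hairpin and the mean with SD (n = 3) beside each group. Cyth3 rises from 8.43 to 9.19 FPKM with shlucif to 29.1 FPKM or more in every Arf1-deficient library, and Arfgap3 falls from 28.8 FPKM or more to 19.6 FPKM or less.

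Among the large GEFs, Gbf1, the exchange factor that recruits COPI through Arf at the early Golgi, changed most. It was at 9.22, 9.51 and 9.22 FPKM in the shlucif libraries 1 to 3, at 13.5, 14.8 and 14.7 FPKM with shArf1-1, and at 13.3, 13.7 and 12.9 FPKM with shArf1-2. Every Arf1-deficient library lay above every control library. On the log2 scale Gbf1 rose by 0.51 ± 0.06 (standard error), with an adjusted p of 3.78e-07 by edgeR, and it was higher in 6 of 6 libraries. With shArf1-1 it was 0.57 and with shArf1-2 it was 0.44, each with a standard error of 0.06. The hairpins differed by -0.13 (95% interval -0.24 to -0.01, adjusted p = 0.126, edgeR), which did not pass the test.

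Arfgef1, which encodes the large trans-Golgi exchange factor BIG1, was at 13.7, 15.5 and 15.0 FPKM with shlucif, at 16.8, 16.8 and 18.3 FPKM with shArf1-1, and at 16.6, 17.0 and 16.7 FPKM with shArf1-2. The groups did not overlap, but the gap between them was narrow and the control libraries spread more widely than those with shArf1-2. The log2 fold change was 0.15 (standard error 0.05, adjusted p = 0.0202, edgeR), higher in 6 of 6 libraries. With shArf1-1 it was 0.18 (adjusted p = 0.0041, edgeR) and with shArf1-2 it was 0.12 (adjusted p = 0.063, edgeR), which missed the threshold. The difference between the hairpins was -0.07 (95% interval -0.18 to 0.05), so the 2 effects were not shown to differ. Without shlucif replicate 1, the lowest control library, the change in Arf1-deficient cells was 0.10 and no longer passed (adjusted p = 0.145, edgeR). With shArf1-2 the change passed without shlucif replicate 2 (0.15, adjusted p = 0.0437, edgeR) and without shArf1-1 replicate 3 (0.12, adjusted p = 0.0443, edgeR).

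Arfgef2, the gene of the related exchange factor BIG2, was at 14.2, 13.8 and 13.0 FPKM with shlucif, 13.5, 15.3 and 14.4 FPKM with shArf1-1, and 15.3, 14.4 and 14.9 FPKM with shArf1-2. The groups overlapped. The log2 difference was 0.04 (95% interval -0.08 to 0.16, adjusted p = 0.56, edgeR), which leaves room for a change of up to 0.16 in size.

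Of the cytohesins, Cyth3 (GRP1 or ARNO3, known for its binding to PIP3 downstream of insulin and growth factor receptors) changed most of the 10 genes. It was at 9.19, 8.43 and 8.59 FPKM with shlucif, at 32.5, 33.1 and 31.9 FPKM with shArf1-1, and at 29.3, 29.1 and 30.0 FPKM with shArf1-2. In counts this was 1065 to 1196 per control library against 3490 to 4697 per Arf1-deficient library. The 3 groups were fully separate, with shArf1-1 above shArf1-2 and both far above the control. The log2 fold change was 1.76 (standard error 0.06, adjusted p = 3.22e-14, edgeR), higher in 6 of 6 libraries, and its absolute size was larger than that of 94.0% of all tested genes. Cyth3 ranked 139 of 12448 from the highest fold change.

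The rise of Cyth3 was 1.84 on the log2 scale with shArf1-1 (standard error 0.06) and 1.68 with shArf1-2 (standard error 0.06). The hairpins differed by -0.16 (95% interval -0.26 to -0.05, adjusted p = 0.0337, edgeR), with all 3 shArf1-2 libraries below the shArf1-1 libraries. Cyth3 was the 1 regulator of 10 to pass this test, which 14.4% of all tested genes passed, and it was called lower as were 7.46% of all tested genes. This call was lost when shArf1-1 replicate 1 or 2 or any 1 of the 3 shArf1-2 libraries was left out, where the difference ran from -0.18 to -0.14 and adjusted p from 0.0569 to 0.131 (edgeR). Arf1 itself was 0.34 higher on the log2 scale with shArf1-2 than with shArf1-1 (standard error 0.05, adjusted p = 1.16e-05, edgeR). Arf1 and Cyth3 thus differed between the hairpins in opposite directions.

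Cyth1, a cytohesin first described in immune cells, moved the other way. It was at 9.96, 9.91 and 10.4 FPKM with shlucif, at 7.77, 8.98 and 8.14 FPKM with shArf1-1, and at 9.70, 8.62 and 8.50 FPKM with shArf1-2. Every Arf1-deficient library was below the controls, the first shArf1-2 library only just. The log2 fold change was -0.29 (standard error 0.08, adjusted p = 0.00333, edgeR), lower in 6 of 6 libraries. With shArf1-2 alone it was -0.25 (adjusted p = 0.0112, edgeR), and that call was lost without shArf1-2 replicate 2 (-0.21, adjusted p = 0.0539) or replicate 3 (-0.21, adjusted p = 0.0548). The macrophage marker sum was lower in the same libraries, and its part in the fall of Cyth1 was not tested.

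Cyth2 (ARNO), the most abundant cytohesin of the control cells, was at 28.9, 26.7 and 28.3 FPKM with shlucif, at 29.5, 29.6 and 32.9 FPKM with shArf1-1, and at 33.5, 31.4 and 29.7 FPKM with shArf1-2. In FPKM all Arf1-deficient libraries were above the controls, whereas in CPM scaled by trimmed mean of M values (TMM) the groups overlapped. The log2 difference was 0.09 (95% interval -0.04 to 0.22, adjusted p = 0.208, edgeR). It was 0.15 and past the threshold when libraries were scaled by size alone (adjusted p = 0.0333, edgeR), so the call for Cyth2 turns on the scaling.

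**Figure D2:**
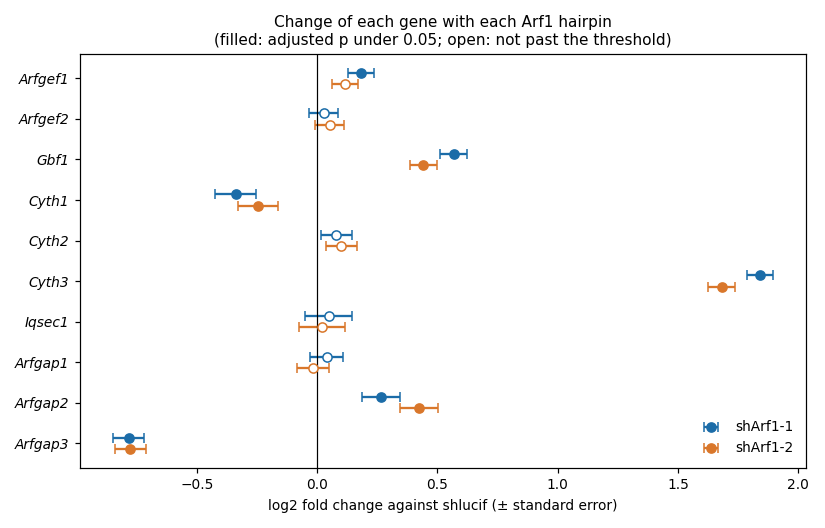
Log2 fold change against shlucif (horizontal axis, bars are standard errors) of each regulator with shArf1-1 and with shArf1-2, filled where the adjusted p was under 0.05. Cyth3 lies near 1.84 and 1.68, Arfgap3 at -0.78 with both hairpins, and Arfgef1 is filled with shArf1-1 but open with shArf1-2.

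The cytohesins were therefore present in different proportions. Cyth3 made up 18.2% to 19.1% of the summed cytohesin FPKM in the control libraries, 43.8% to 46.6% with shArf1-1 and 40.5% to 44.0% with shArf1-2. The share of Cyth2 was 59.3% to 60.2% in the controls and 41.3% to 46.2% in Arf1-deficient libraries, and that of Cyth1 was 20.7% to 22.0% against 11.1% to 13.4%. The summed level of the 3 genes was 45.0 to 48.1 FPKM with shlucif and 68.2 to 72.9 FPKM in Arf1-deficient libraries. These sums and shares carry no test beyond those of the single genes, and shares within a family are not independent of each other.

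Iqsec1, whose product activates Arf6 in integrin and receptor endocytosis, was the least expressed of the 10 genes, at 1.51, 1.71 and 1.48 FPKM with shlucif, 1.59, 1.88 and 1.57 FPKM with shArf1-1, and 1.69, 1.68 and 1.62 FPKM with shArf1-2. The groups overlapped. The log2 difference was 0.03 (95% interval -0.15 to 0.22, adjusted p = 0.749, edgeR), the widest interval among the genes that did not pass.

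Of the ArfGAPs, Arfgap3 fell and Arfgap2 rose. Arfgap3, a Golgi GAP that binds coatomer, was at 28.8, 30.1 and 31.6 FPKM in the control cells. This was the highest mean FPKM of the 10 regulators there, with a range that overlapped that of Cyth2. By counts Arfgef1 was above Arfgap3 (2134 to 2346 against 1526 to 1653 with shlucif). Arfgap3 was at 17.9, 19.2 and 17.6 FPKM with shArf1-1 and at 19.6, 18.4 and 17.4 FPKM with shArf1-2. The control libraries stood well apart from the Arf1-deficient libraries, and the ranges of the 2 hairpins overlapped. The log2 fold change was -0.78 (standard error 0.06, adjusted p = 1.13e-09, edgeR), lower in 6 of 6 libraries, and it was -0.78 with each hairpin alone. The hairpins differed by 0.01 (95% interval -0.13 to 0.14, adjusted p = 0.976, edgeR). For Arf1 the log2 fold changes were -1.39 with shArf1-1 and -1.05 with shArf1-2.

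Arfgap2, the closest relative of Arfgap3 and likewise a partner of coatomer, was at 7.54, 7.76 and 8.21 FPKM with shlucif, at 10.1, 9.79 and 9.46 FPKM with shArf1-1, and at 11.2, 11.0 and 11.0 FPKM with shArf1-2. The 3 groups were separate, here with shArf1-2 highest. The log2 fold change was 0.35 (standard error 0.08, adjusted p = 0.000657, edgeR), higher in 6 of 6 libraries. The change was 0.27 for shArf1-1 against 0.42 for shArf1-2. Their difference of 0.16 (95% interval 0.0018 to 0.32, adjusted p = 0.177, edgeR) did not pass the test. Arfgap2 overlaps the protein-coding gene 1110051M20Rik on the opposite strand, which had at most 451 counts in a library. The sources used here do not say whether counting used strand, so reads from that stretch cannot be told apart.

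Arfgap1, the GAP whose lipid packing sensor motifs bind curved membrane, was at 11.7, 11.8 and 11.5 FPKM with shlucif, 12.5, 11.8 and 13.0 FPKM with shArf1-1, and 12.5, 12.3 and 11.6 FPKM with shArf1-2. The groups overlapped. The log2 difference was 0.01 (95% interval -0.12 to 0.14, adjusted p = 0.89, edgeR).

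**Figure D3:**
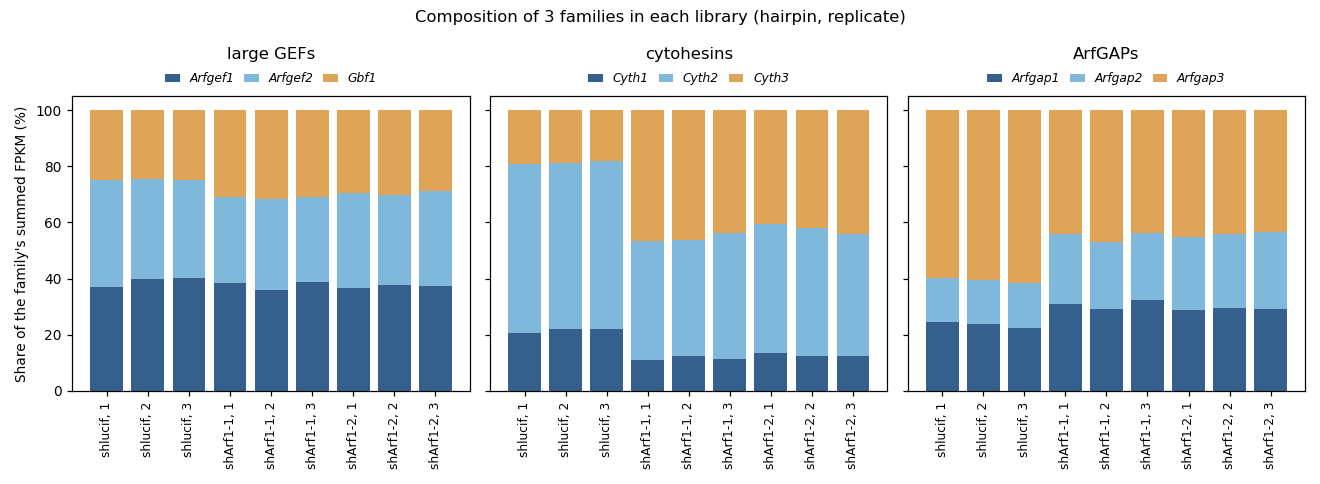
Share (in percent, stacked to 100 in each bar) of each gene in the summed FPKM of its family, for 1 bar per library labelled by hairpin and replicate number. Cyth3 takes 18.2% to 19.1% of the cytohesin bar with shlucif and 40.5% to 46.6% in Arf1-deficient libraries, and Arfgap3 goes from 59.9% to 61.6% of the ArfGAP bar to between 43.6% and 47.0%.

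The composition of the ArfGAPs changed as well. Arfgap3 made up 59.9% to 61.6% of their summed FPKM in the controls and 43.6% to 47.0% in Arf1-deficient libraries, and their sum was 48.1 to 51.3 FPKM against 40.0 to 43.4 FPKM. Arfgap2 went from 15.6% to 16.0% of the sum to between 23.6% and 27.4%. For the large GEFs the sum was 37.1 to 38.8 FPKM with shlucif and 43.9 to 47.4 FPKM in Arf1-deficient libraries, where Gbf1 held 29.0% to 31.5% after 24.5% to 24.9% in the controls.

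FPKM divides by a single listed length per gene. The order of genes and the shares within families depend on these lengths, which were not checked against the transcripts expressed here. Ordered by FPKM, the control cells had Arfgap3 (30.2 ± 1.38, SD, n = 3) and Cyth2 (28.0 ± 1.15) at the top, with overlapping ranges. Arfgef1 (14.7 ± 0.93) and Arfgef2 (13.7 ± 0.62) followed and also overlapped. Below them Arfgap1 (11.7 ± 0.16), Cyth1 (10.1 ± 0.27), Gbf1 (9.32 ± 0.17), Cyth3 (8.74 ± 0.40) and Arfgap2 (7.84 ± 0.34) came in that order with no overlap between neighbours, and Iqsec1 (1.56 ± 0.12) was lowest. Cyth3 moved from the eighth place to the first with shArf1-1 (32.5 ± 0.58) and to the second with shArf1-2 (29.5 ± 0.47), in both cases overlapping Cyth2. Arfgap3 moved from the first to the third place with each hairpin. The comparisons of each hairpin with shlucif share the control libraries. With shArf1-1, 6 of 10 genes passed (67.5% of all tested genes), and with shArf1-2, 5 of 10 passed (63.4%), Arfgef1 being the difference. In TMM-scaled CPM 6 of 10 genes had no overlap between the Arf1-deficient and control libraries, as did 58.1% of all tested genes.

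Promoter entries of RefSeq (GRCm38.p6, the 250 bases before a transcript start) were matched by symbol for 9 of the 10 genes, which had 13 such windows. Against the GENCODE span of their own gene, 4 windows lay outside it (Cyth3, Arfgap3, Arfgef2 and 1 of Arfgap1), 4 lay across its start and 5 lay inside it (2 of Cyth1, both of Iqsec1 and that of Cyth2). Those of Cyth3 and Arfgap3, the genes with the largest rise and the largest fall, are shown, at chr5:143622197-143622446 (plus strand) and chr15:83350248-83350497 (minus strand). Capitals mark the GC box GGGCGG on either strand.
Cyth3: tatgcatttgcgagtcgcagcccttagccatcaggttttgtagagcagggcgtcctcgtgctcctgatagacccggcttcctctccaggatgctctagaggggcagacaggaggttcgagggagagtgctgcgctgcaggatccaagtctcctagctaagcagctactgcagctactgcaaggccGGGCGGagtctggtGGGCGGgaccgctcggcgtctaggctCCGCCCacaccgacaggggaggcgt
Arfgap3: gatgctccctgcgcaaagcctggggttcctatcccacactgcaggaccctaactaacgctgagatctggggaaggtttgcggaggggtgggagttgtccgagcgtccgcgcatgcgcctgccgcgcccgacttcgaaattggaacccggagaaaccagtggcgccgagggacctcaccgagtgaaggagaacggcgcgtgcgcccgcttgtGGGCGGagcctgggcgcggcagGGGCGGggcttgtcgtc
Cyth3 held 3 GC boxes and Arfgap3 held 2, and the motif was found in 32.7% of all 32851 promoter windows of this length. Both were searched on both strands for ACGTGGC (the Golgi stress element, in 2.02% of all windows), CACGTG (E-box, 6.02%), TGACGTCA (cyclic AMP response element, 1.55%) and CCAAT (33.8%). Neither ACGTGGC nor TGACGTCA occurred in any of the 13 windows, and CACGTG occurred only in that of Arfgef2. CCAAT occurred once in the Arfgap3 window and not in that of Cyth3. These matches describe letters only, and the motifs as searched do not overlap each other in the windows shown.

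Cyth3 lies on the plus strand of chromosome 5 from 143622447 to 143710250 in the GENCODE annotation of GRCm38 (ENSMUSG00000018001), and Arfgap3 on the minus strand of chromosome 15 from 83299739 to 83350247 (ENSMUSG00000054277). Gbf1 (ENSMUSG00000025224) lies on chromosome 19 from 46152509 to 46286510, plus strand. Arfgef2, Arfgap1 and Arfgap2 all lie on chromosome 2, and the other genes on a chromosome each.

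The tested genes whose log2 CPM over the 9 libraries was most like that of Cyth3 were Chrna3 (Pearson's r = 0.999), Fbxl7 (0.998) and Sv2c (0.998), and 2041 tested genes had an r over 0.9. For Arfgap3 they were Calcoco1 (0.996), Plat (0.994) and Scmh1 (0.994), with 2140 genes over 0.9. These correlations are a description over 9 libraries, which share the contrast between the shlucif and Arf1-deficient groups.

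The other Arf exchange factors mostly fell. Of 9 listed, 8 were tested, and 1 was higher and 6 were lower in Arf1-deficient cells, with a median log2 fold change of -0.79. Among all tested genes 31.6% were higher and 32.9% lower, with a median of 0.0033. Psd3, an Arf6 exchange factor, had 20 to 32 counts per shlucif library and 0 to 2 in Arf1-deficient libraries, which was at least 8.95-fold lower against a floor of 3 counts per library. Cyth4, the cytohesin known from blood cells, had 118 to 142 counts with shlucif and 12 to 23 in Arf1-deficient libraries, a fitted log2 change of -2.84 ± 0.19 (standard error) with an adjusted p of 1.98e-10 by edgeR. Psd4 (-1.13), Iqsec2 (-0.80), Psd2 (-0.77) and Psd (-0.38) were also lower. Arfgef3, named after its value was seen as the 1 gene to rise, was 0.28 higher with overlapping groups. The fitted value of Psd3 depends on the prior count, and the list's median was the same with Psd3 at its bound. The macrophage markers fell in the same libraries (15 of 15 tested), and their part in the fall of Cyth4 and the others was not tested.

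Of 20 other Arf GAPs, 18 were tested, 3 higher and 11 lower, with a median log2 fold change of -0.23. Acap1 was lowest at -2.21 (standard error 0.36, adjusted p = 2.59e-05, edgeR), from 45 to 63 counts with shlucif to 1 to 16 in Arf1-deficient libraries. Arap1 (-0.82), Acap2 (-0.72), which acts on Arf6, and Agap2 (-0.72) followed. The macrophage markers fell in the same libraries, and their part in the fall of Acap1 and the other GAPs was not tested. The ASAP genes went in both directions, with Asap1, a GAP of focal adhesions, 0.56 higher and Asap3 at -0.55 (standard error 0.13, adjusted p = 0.00143, edgeR). With shArf1-1, Asap1 was at 0.76, Asap3 at -0.77 and Agap2 at -0.97. With shArf1-2 these values were 0.32, -0.36 and -0.50. The remaining genes that rose were Asap2 (0.43) and Acap3 (0.24), both named after their values were seen. Among the 6 Arf GTPases, Arf1 (-1.21), Arf6 (-0.80) and Arf5 (-0.58) were lower. Arf4 was 0.18 higher (adjusted p = 0.0494, edgeR) with overlapping groups, at 0.30 with shArf1-1 (adjusted p = 3.31e-05) and at 0.05 with shArf1-2, where it did not pass (adjusted p = 0.475). That difference between the hairpins was -0.25 (adjusted p = 0.0030, edgeR). Of 8 Golgi partners of these regulators, 4 were higher and 3 lower. The higher genes were Kdelr2 (0.56), Arl1 (0.25), Rab1b (0.23) and Tmed2 (0.22), and the groups overlapped for Arl1 and Tmed2. The lower genes were Kdelr3 (-1.33), Kdelr1 (-0.20) and, named after its value was seen, Rab1a (-0.17). Kdelr3 was at -0.95 with shArf1-1 and at -1.82 with shArf1-2. With shArf1-1 the counts were 5 higher and 3 lower, and with shArf1-2 they were 2 and 3. In the background of all tested genes 31.6% were higher and 32.9% lower.

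**Figure D4:**
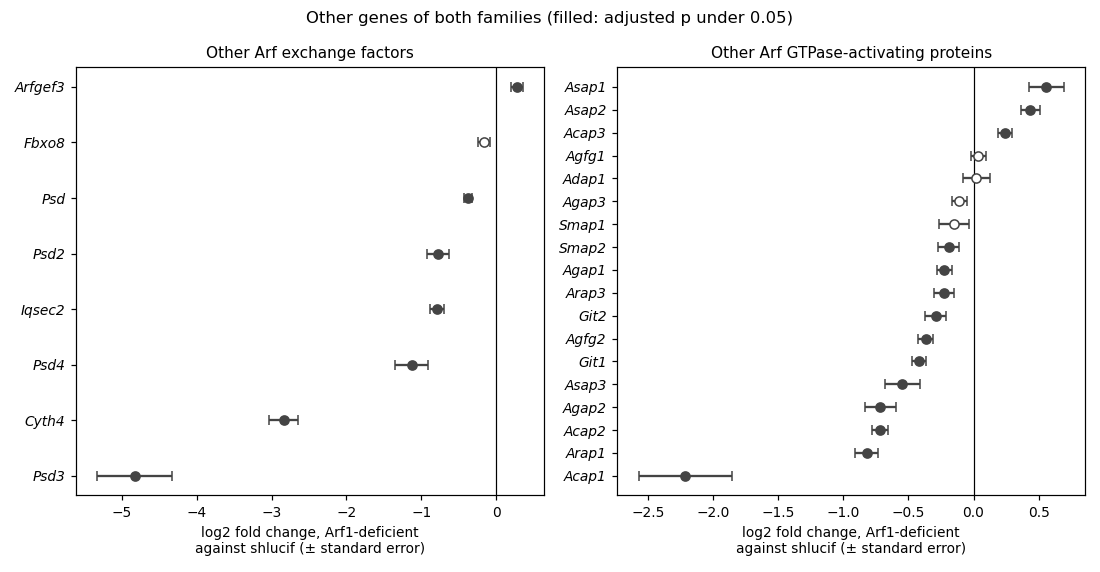
Log2 fold change in Arf1-deficient against shlucif libraries (horizontal axis, bars are standard errors) of the other tested Arf exchange factors and GAPs, filled where the adjusted p was under 0.05. Most lie left of 0, with Cyth4 at -2.84 and Acap1 at -2.21, and the point of Psd3 is a fitted value that depends on the prior count.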

How the data were processed

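RNA-seq of 9 N2a libraries was analysed. Per the labels, oligo(dT) beads captured polyA RNA, which was fragmented and primed with random hexamers. The authors deposited whole-number counts per gene without normalization, and FPKM values, which were reproducible from count, listed length and total count within a relative difference of 1.89e-07. The aligner, counting tool and use of strand are not given in the sources used here. The submitters' processing notes list mm10, but only 514 of 21795 matched identifiers start where GENCODE places them on GRCm38, so positions were taken by identifier from GENCODE vM21. Columns named shArf2 were taken as shArf1-2.

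Counts were fitted with edgeR 4.0.16 in R 4.3.3 (filterByExpr, TMM, robust glmQLFit, glmQLFTest), with 2 groups for the Arf1-deficient comparison and 3 groups for the hairpins. Standard errors were derived from the F statistic. Genes passed at a p under 0.05 after Benjamini-Hochberg adjustment over 12448 genes, and 3 counts were taken as the floor. FPKM carries no TMM scaling, so its ratios differ slightly from fitted folds. Alternatives were other scalings and filters, DESeq2 1.42.0, limma 3.58.1 on log2(FPKM + 1) or log2(FPKM + 0.1), blocking by replicate number, the average of the hairpin contrasts and leaving out each library. All 10 genes were named, and of each other list up to 6 genes past the threshold with the largest absolute change. Arfgef3, Asap2, Acap3 and Rab1a were named outside this rule. The genes and lists were chosen with earlier results of these data known. Hairpin targets were read from the study's primer list, and promoters from RefSeq.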

Additional observations from a re-analysis of the deposited data

Results flagged for a closer look

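In 2 of the 10 genes a single Arf1-deficient library stood apart from the other 5 in log2 TMM CPM, by Dixon's ratio of the gap to the range. Arfgef1 was highest with shArf1-1 replicate 3 (205 CPM, the others 185 to 189), with a ratio of 0.785. Iqsec1 was highest with shArf1-1 replicate 2 (29.8 CPM, the others 24.8 to 26.5), with a ratio of 0.632. Chance alone flags about 1 in 20 groups drawn from a single normal distribution, whereas these 6 libraries come from 2 hairpins. The share flagged over all tested genes was not counted. The effect of the hairpins on Cyth3 differed, being -0.16 on the log2 scale with shArf1-2 against shArf1-1 (adjusted p = 0.0337 by edgeR's quasi-likelihood test), with 3 of 3 shArf1-2 libraries lower.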

How the results depend on the processing

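Cyth3, Gbf1, Arfgap2 and Arfgap3 kept direction and call against shlucif in every alternative, in Arf1-deficient cells and with each hairpin. The number of genes that differed between the hairpins was 1, and 0 with upper quartile scaling or limma on FPKM with either pseudocount, and 0 to 1 with 1 library left out. Cyth1 with shArf1-2 missed the threshold with library size scaling (-0.17, adjusted p = 0.0668 by edgeR) and with limma (adjusted p = 0.0539 and 0.0548). Cyth2 passed with library size scaling or limma in Arf1-deficient cells and with shArf1-2. With shArf1-1 it passed in 0 of 18 alternatives. Arfgef1 with shArf1-2 also passed with library size scaling or limma. Scaling by library size put the median of all tested genes at 0.066 in Arf1-deficient cells, where TMM put it at 0.0033.

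Signs turned only for values that passed no test. In Arf1-deficient cells, Arfgap1 was -0.0017 with median-of-ratios size factors, -0.0011 with at least 10 counts in every library and -0.0015 with DESeq2. With shArf1-2 it was 0.0542 with library size scaling and, with limma, 0.0495 on log2(FPKM + 1) and 0.0531 on log2(FPKM + 0.1). With 1 library left out, Arfgap1 ran from -0.0056 to 0.0272 in Arf1-deficient cells and from -0.0432 to 0.0093 with shArf1-2, and Iqsec1 from -0.0070 to 0.0914 in Arf1-deficient cells, from -0.0433 to 0.105 with shArf1-1, from -0.0187 to 0.0762 with shArf1-2 and from -0.0802 to 0.0598 between the hairpins. Arfgef2 ran from -0.0240 to 0.0691 with shArf1-1. Between the hairpins, Arfgef2 ran from -0.0161 to 0.0737, Cyth2 from -0.0286 to 0.0728 and Arfgap3 from -0.0437 to 0.0477. The cause was not tested.

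No shared effect of the replicate number was seen, which does not show whether same-numbered libraries were prepared together. Over 9 same-numbered pairs the mean correlation of deviations was 0.0070, with 0 over 0.1. In both other groups at once, 1 library correlated best with its own number. With the replicate block, 6, 6, 5 and 1 of the genes passed in the 4 comparisons, as without it, and 7808 of all genes in the first.
Standard errors of the log2 fold changes in Arf1-deficient cells ran from 0.05 for Arfgef1 to 0.09 for Iqsec1.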
